A study of Homo sapiens with 6 samples.

Results

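The genes of HLA class I antigen presentation were followed through cap immunoprecipitates of MOLT-4 cells. The 9 genes HLA-B, HLA-C, HLA-E, HLA-F, B2M, TAP1, TAP2, TAPBP and CIITA were taken by their names in the array files, with every probe of each. This gave 9 of the 36328 gene names on the array and 18 of its 50599 probes for cell RNA. MOLT-4 is an established line from a T-cell acute lymphoblastic leukaemia. Its cells carried either an empty vector (mock, 3 arrays) or NUDT16, an RNA decapping enzyme (3 arrays). From 20 µg of total RNA per reaction, RNA with an m3G or m7G cap was immunoprecipitated and the eluate was hybridised to a 1-colour expression array. Input RNA was not analysed here, and in bulk eluates fewer expressing cells, less RNA per cell and less capture cannot be told apart. Nothing in the labels says whether replicates were separate cultures, so p-values measure the spread between these arrays, which may be technical.

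HLA class I molecules present peptides from inside the cell to CD8+ T cells. A polymorphic heavy chain pairs with beta-2-microglobulin, and peptides cut by the proteasome are pumped into the endoplasmic reticulum by the TAP transporter, where tapasin helps to load them. Interferon induces most of these genes, and NLRC5 drives class I promoters much as CIITA drives those of class II. T cells generally carry class I, and class II is best known from professional antigen-presenting cells.

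NUDT16 replicate 2 stood apart. On it 14.6% of the 58717 spots for cell RNA lay well above background, against 39.3% to 52.0% on the other 5 arrays. Its 75th percentile, the value by which each array is scaled, was 8.57, against 91.7 to 359 elsewhere. That percentile was therefore a background value, and values without this array are given beside the main results. Both probes for NUDT16 itself stayed at background on all 6 arrays, so they did not check the labels. The label of a T-lineage line was checked by markers. Of 10 T-lineage markers, 7 to 10 were detected per array, and of 7 immature thymocyte markers 4 to 7. Of 5 B-cell markers 1 to 3 were detected, with MS4A1 and PAX5 on no array, and of the 4 monocyte and dendritic markers on the array 1 to 3, with CSF1R on none. Their part in the results was not tested.

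The first 3 class I probes below read nearly the same bases, whatever gene they are named for, and the sequences are shown because they limit what can be said of HLA-B apart from HLA-C. A_33_P3424800 and A_33_P3379947, named HLA-B, lie at chr6:31321663-31321722 and chr6:31321653-31321712 (hg19). A_33_P3424803, named HLA-C, lies at chr6:31321644-31321703 and so overlaps both. The other HLA-C probe, A_33_P3330109, lies at chr6:31236617-31236676. The stretches below run 5′ to 3′, and the capital marks the base that differs.
HLA-B A_33_P3424800, bases 22 to 51: agtcaattcctggaaGttgagagagcaaat
HLA-B A_33_P3379947, bases 12 to 41: agtcaattcctggaaTttgagagagcaaat
HLA-C A_33_P3424803, bases 3 to 32: agtcaattcctggaaGttgagagagcaaat
HLA-C A_33_P3330109, bases 1 to 30: gagctgcaacttcttacttccctaatgaag
Over the 50 bases that the HLA-B pair share, 1 differs, G37T counted from the 5′ end of A_33_P3424800. The probe A_33_P3424803 matches A_33_P3424800 over all of the 41 bases they share. The array file cites RefSeq accessions of HLA-B and HLA-C together for both overlapping HLA-B probes. For A_33_P3424803 it cites neither of those accessions. Signal on the 3 overlapping probes therefore cannot be assigned to 1 of the 2 genes. No probe of a gene outside the 9 shared a run of 30 bases with any of the 18 probes.

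**Figure D1:**
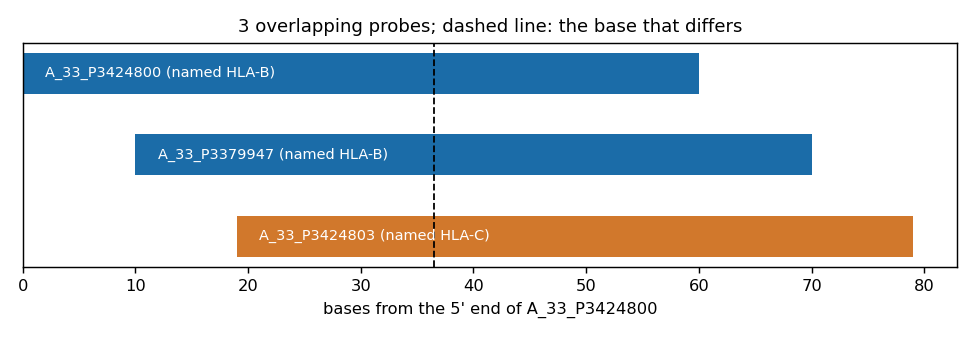
Position of the 3 overlapping class I probes, as bases from the 5′ end of A_33_P3424800 (horizontal axis), with blue bars named HLA-B and the orange bar named HLA-C in the array files. The dashed line marks position 37, where A_33_P3379947 differs from both others.

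Across the whole table, 17765 probes were tested with limma, each well above background in every array of mock, of NUDT16 or of both. A single probe, for the pseudogene NUDT16P1, passed the adjusted p threshold of 0.05, which is 0.00563% of those tested. It was higher on the NUDT16 arrays, by 7.00 on the log2 scale. Of the 18 antigen presentation probes 13 were tested, for 8 of the 9 genes, and 0 were called. At an unadjusted p under 0.05 there were 0 of the 13, against 0.0844% of all probes. So few probes of the whole table reached that p that 0 of 13 says little of these genes. This fit does not pair same-numbered arrays, and a fit that does is given below. Mock and NUDT16 values overlapped for 13 of 13 probes, and groups without overlap made up 1.37% of all probes (0.332% with NUDT16 higher and 1.04% with NUDT16 lower). Every one of these 13 had a limma adjusted p of 0.999. The levels that follow are log2 signals after subtraction of each array's own 75th percentile, and a difference is NUDT16 minus mock.

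Among the heavy chains, HLA-B presents peptides to CD8+ T cells and carries much of the polymorphism of class I. On A_33_P3424800 its level was 6.39, 5.76 and 4.69 on mock replicates 1, 2 and 3 and 7.25, 5.60 and 5.14 on the NUDT16 arrays. The highest arrays were both of replicate 1 and the lowest both of replicate 3, so the groups overlapped. The difference was 0.39 (SE 0.71, limma adjusted p 0.999). On the overlapping probe A_33_P3379947 mock averaged 5.46 ± 0.83 (SD, n = 3), and NUDT16 averaged 5.95 ± 1.07 (SD, n = 3), a difference of 0.49 (SE 0.70). For the probe A_33_P3399208 the file gives no coordinates and cites neither of the HLA-B and HLA-C RefSeq accessions named above. Its gene was taken from the array's name, and its place in the transcript was not checked. With each of A_33_P3424800 and A_33_P3379947 it shares a run of at most 8 bases. This probe is printed whole because it differed most between the groups among the 13 probes.
HLA-B A_33_P3399208: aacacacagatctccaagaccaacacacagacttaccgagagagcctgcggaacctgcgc
It read 2.61, 0.62 and 0.38 on mock and 3.84, 1.64 and 0.77 on NUDT16 replicates 1, 2 and 3. Each NUDT16 array exceeded its mock partner, by 1.22, 1.02 and 0.39, while the groups overlapped because replicate 1 was high in both. On NUDT16 replicate 2 the lowest value well above background was 1.18, already above the 0.62 of mock replicate 2. Any probe well above background on that array thus read higher than this partner, which limits the 1.02. The difference was 0.88 (SE 0.84, limma adjusted p 0.999), and the SE was 0.32 when replicate number entered the fit as a block (limma adjusted p 0.482).

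HLA-C, which presents peptides and is the main class I ligand of killer-cell immunoglobulin-like receptors, had 1 probe at a position of its own. A_33_P3330109 read 6.63, 6.29 and 5.25 on mock and 7.54, 6.41 and 5.46 on NUDT16 replicates 1, 2 and 3. As on A_33_P3424800, replicate 1 was high and replicate 3 low in both groups, and the groups overlapped. Its difference was 0.42 (SE 0.68), and that of A_33_P3424803 was 0.38 (SE 0.70). The 4 probes named HLA-B or HLA-C other than A_33_P3399208 thus had differences from 0.38 to 0.49, with SEs of 0.68 to 0.71. Of these 4, 3 overlap and read nearly the same bases, and A_33_P3399208 lay outside that range at 0.88.

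HLA-E presents leader peptides of other class I chains to the NKG2A receptor. Its probe A_32_P460973 (chr6:30460729-30460788) read 5.96, 5.28 and 4.96 on mock and 6.82, 5.80 and 5.10 on NUDT16 replicates 1, 2 and 3. Each NUDT16 array was above its partner, by 0.86, 0.52 and 0.14, and the difference was 0.51 (SE 0.64). HLA-F is a further non-classical heavy chain. Its probe A_33_P3379939 (chr6:29693280-29693338) read 5.78, 4.65 and 4.26 on mock and 6.76, 5.43 and 4.46 on NUDT16 arrays, a difference of 0.66 (SE 0.71) that was positive in 3 of 3 same-numbered pairs.
HLA-F A_33_P3379939: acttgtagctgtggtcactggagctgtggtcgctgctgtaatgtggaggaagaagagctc
The second HLA-F probe, A_33_P3379967 (chr6:29692114-29692173), was well above background on mock replicate 1 only and was not tested. Without NUDT16 replicate 2 the differences were 0.58 for A_33_P3424800, 0.66 for A_33_P3379947, 1.10 for A_33_P3399208, 0.54 for A_33_P3424803, 0.45 for A_33_P3330109, 0.56 for HLA-E and 0.72 for HLA-F. The brightest HLA-B, HLA-C (A_33_P3424803), HLA-E and HLA-F probes had a negative difference with a median shift, without scaling and with normexp background correction. The median of all genes was then -0.69, -1.06 and -0.16, and the median shift and no scaling move all genes alike. These 4 probes stayed positive with quantile normalization and with the 75th percentile taken over probes detected on all arrays.

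B2M encodes beta-2-microglobulin, the invariant light chain of every class I molecule, and its array profile differed from that of the heavy chains. Its probe A_23_P37441 (chr15:45007773-45007832) is printed here because it was spotted 10 times on each array.
B2M A_23_P37441: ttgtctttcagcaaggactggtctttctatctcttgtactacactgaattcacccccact
B2M read 5.45, 6.65 and 4.76 on mock and 5.69, 5.60 and 4.92 on NUDT16 replicates 1, 2 and 3. Mock replicate 2 was the highest array, where the heavy chains were highest on NUDT16 replicate 1. The spots of 1 array had an SD between 0.02 and 0.07 on the log2 scale, while the 3 mock arrays had an SD of 0.95. The difference was -0.22 (SE 0.65, limma adjusted p 0.999), with 0.24, -1.05 and 0.15 by pair. It was 0.29 without mock replicate 2, 0.02 without NUDT16 replicate 3 and -0.32 without NUDT16 replicate 2, and -0.65 at the lowest when 1 array was left out.

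The peptide supply was read by probes for both subunits of the TAP transporter and for tapasin. TAP1, an ATP-binding subunit, was detected on all 6 arrays with A_23_P59005 (chr6:32813210-32813269). It read 3.38, 1.59 and 1.35 on mock and 4.35, 1.62 and 1.93 on NUDT16 replicates 1, 2 and 3. Both arrays of replicate 1 were high, and the difference was 0.52 (SE 0.81), positive in 3 of 3 pairs, and 1.03 without NUDT16 replicate 2. The 1.62 on that array lay near 1.18, its lowest value well above background. The TAP1 difference was -0.19 with a median shift and -0.56 without scaling, settings that move all genes alike. TAP2, its partner subunit, was at 0.91, -0.22 and -0.10 on mock and 0.97, -1.02 and 0.35 on NUDT16 arrays with A_33_P3214650 (chr6:32793222-32793281). On NUDT16 replicate 2 it was not well above background, so that value is only an upper limit. The TAP2 difference was -0.10 (SE 0.67), 0.47 without that array and -1.19 with quantile normalization. The other TAP2 probe, A_23_P368067, was at background on all 6 arrays.

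TAPBP, which encodes tapasin, had 4 probes that did not give 1 picture. The brightest, A_23_P365719 (chr6:33267718-33267777), read 4.09, 2.20 and 2.64 on mock and 4.53, 0.97 and 3.17 on NUDT16 arrays, with NUDT16 replicate 2 not well above background. Its difference was -0.09 (SE 0.86) and 0.87 without that array. A_33_P3325914 (chr6:33271911-33271970) had a difference of 0.29 (SE 0.62), and 0.002 without that array. A_23_P259580, whose listed span of chr6:33273141-33281029 is far longer than the probe, had 0.06 (SE 0.56) and 0.006 without NUDT16 replicate 2, where it too was not well above background. The fourth, A_23_P360291, was at background on all 6 arrays.

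CIITA, the master regulator of class II genes, was not detected. Unscaled log2 signals of A_33_P3324394 (chr16:10996598-10996657) were 4.45, 2.02 and 3.71 on mock and 3.06, 1.996 and 4.51 on NUDT16 replicates 1, 2 and 3. Those of A_32_P209960 (chr16:11018667-11018726) lay between 2.26 and 3.16. Both probes were at background on every array, so no fold is given.

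**Figure D2:**
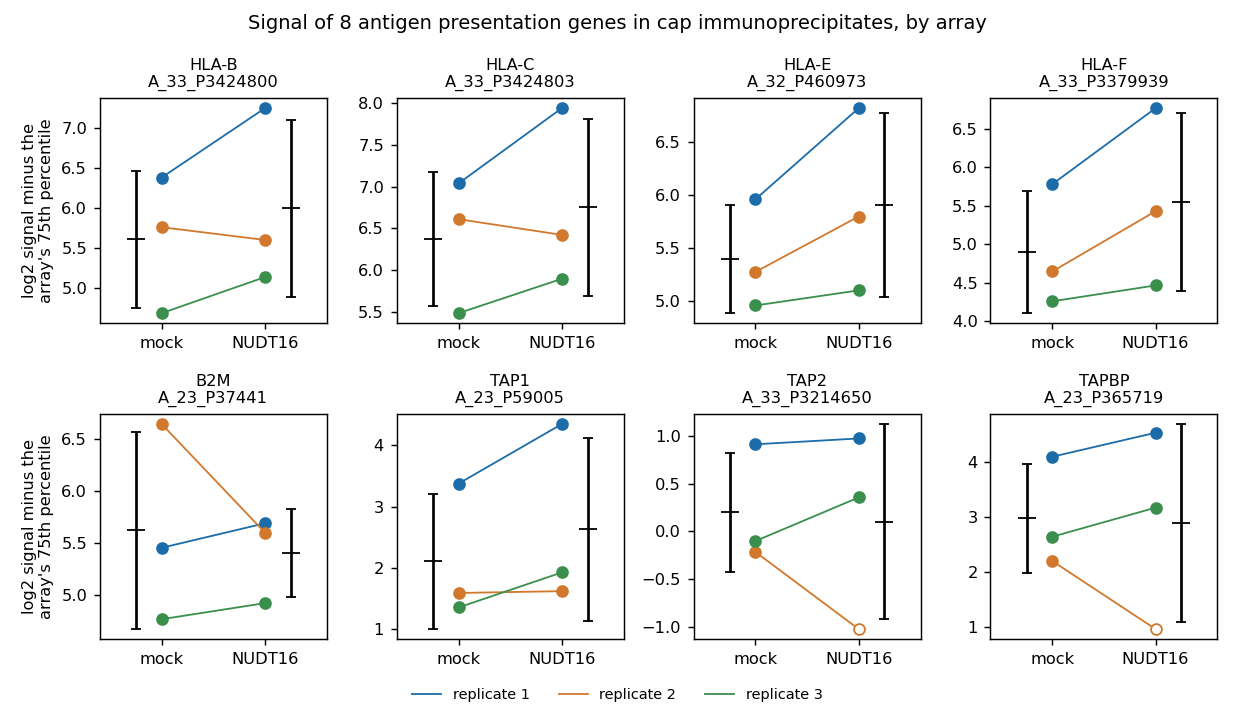
Signal (vertical axis, log2 relative to the array's 75th percentile) of the brightest probe of 8 genes, with lines joining the mock and NUDT16 arrays of the same replicate number, open circles for values not well above background, and black marks for the mean ± SD of 3 arrays. Replicate 1 is the highest pair for the heavy chains, TAP1, TAP2 and TAPBP, and B2M is highest on mock replicate 2. The axes differ between panels.

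Arrays of the same number shared a slide and varied together, so the differences were also read within each pair. For replicate 1, 8 of the 8 genes were higher on the NUDT16 array, with a median of 0.86, against a median of 0.09 and 55.7% higher over all 13734 genes tested. TAP2, at 0.06, lay below that median of all genes. Without scaling, which shifts all genes of a pair alike, B2M was at -0.12 and TAP2 at -0.30 there, and the others stayed positive. For replicate 3, 8 of 8 were again higher after scaling, with a median of 0.43 against 0.01 and 50.5% higher. For replicate 2, whose NUDT16 array stood apart, 3 of 8 were higher, with a median of -0.17 against -0.05 and 48.3% higher, and by probe 8 of 13 against 47.3% of all probes. Counted by probe, 11 of the 13 were higher in both pair 1 and pair 3, against 33.5% of all probes, and 6 were higher in all 3 pairs, against 20.2%. None of the 13 was lower in all 3, against 22.8%. These counts share probes of the same bases, and genes passing the filter are not all of the 9.

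**Figure D3:**
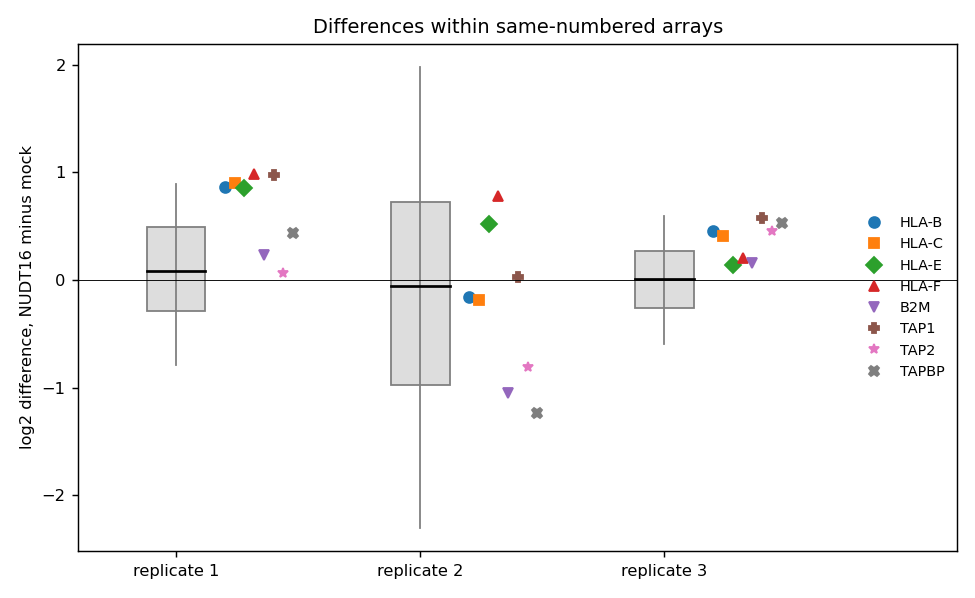
Difference between the NUDT16 and mock array of each replicate number (vertical axis, log2) for the brightest probe of 8 genes (symbols) beside all tested genes (black line at the median, box over the interquartile range, whiskers from percentile 5 to percentile 95). The 8 symbols lie above 0 for replicates 1 and 3 and on both sides of 0 for replicate 2.

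With same-numbered arrays as a block, limma's standard errors for the 13 probes fell between 0.30 and 0.43, and 0 were called (adjusted p 0.482 to 0.926). At an unadjusted p under 0.05 there was 1 of 13, A_33_P3399208, against 7.96% of all probes. Its reading on NUDT16 replicate 2 lay near the lowest detected value of that array, as given above. Without replicate 2 in either group, the paired fit called 503 probes of the whole table (2.83%) and 0 of the 13. In that fit the difference was 0.80 for A_33_P3399208 (SE 0.26, limma adjusted p 0.0606), 0.77 for TAP1 (0.0745), 0.66 for A_33_P3424800 (0.128), 0.60 for HLA-F (0.165), 0.50 for HLA-E (0.243) and 0.20 for B2M (0.716), the values in brackets after the first being adjusted p. In all, 7 of the 13 were higher at an unadjusted p under 0.05 there, against 12.3% of all probes. They were all probes named HLA-B or HLA-C, A_33_P3379939 for HLA-F and TAP1. Among them A_33_P3424800, A_33_P3379947 and A_33_P3424803 overlap, so these are not separate readings. In either direction 21.6% of all probes had such a p. This fit has 2 arrays a group and shares its spread over all probes. The SE was 0.26 for each of the 13, so no probe's own spread entered.

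**Figure D4:**
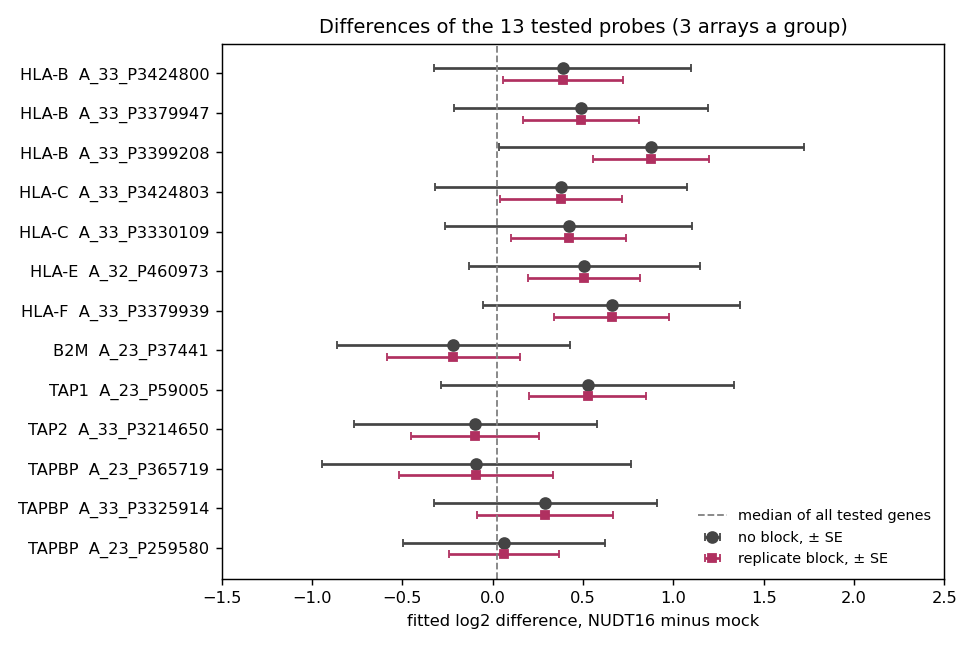
Fitted difference (horizontal axis, log2, NUDT16 minus mock) of the 13 tested probes with its SE, in the unpaired fit (circles) and in the fit blocked on replicate number (squares). The dashed line is the median of all tested genes at 0.02. B2M and the brightest TAP2 and TAPBP probes lie left of 0. The signs of HLA-B, HLA-C, HLA-E, HLA-F and TAP1 turn when arrays are not scaled, which moves all genes alike.

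Over all 6 arrays the 8 genes had a median difference of 0.38, with 5 higher and 3 lower, against 0.02 and 51.4% higher over all genes tested. The middle values that set this median were 0.38 for A_33_P3424803 (HLA-C) and 0.39 for A_33_P3424800 (HLA-B). These probes overlap, so the 8 genes were not 8 separate readings. The median was 0.74 without mock replicate 1, 0.37 without mock replicate 2 and -0.07 without mock replicate 3. It was -0.29 without NUDT16 replicate 1, 0.57 without NUDT16 replicate 2 and 0.81 without NUDT16 replicate 3. Its sign also turned to -0.33 with a shift by the median, to -0.70 without scaling and to -0.21 with normexp background correction, where the median of all genes was -0.69, -1.06 and -0.16. Relative to all genes the 8 lay 0.36 higher as reported, with the median shift and without scaling, and -0.05 with normexp.

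**Figure D5:**
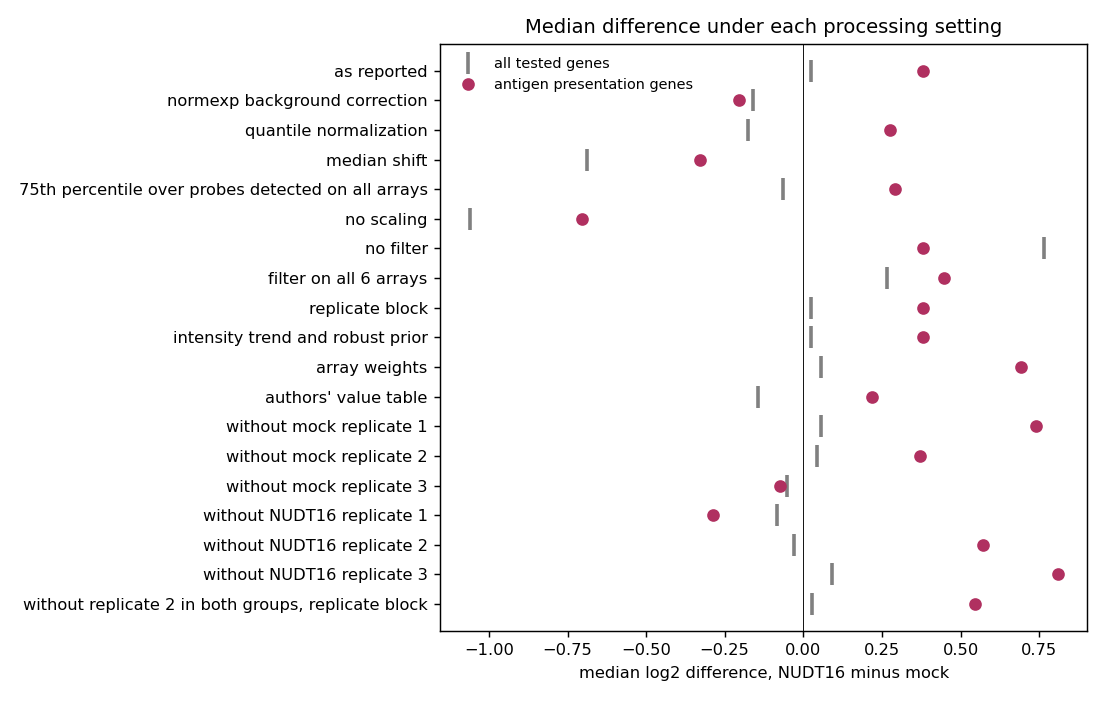
Median difference (horizontal axis, log2, NUDT16 minus mock) of the 8 genes (circles) and of all tested genes (bars) under each processing setting. The circles move from -0.70 without scaling to 0.81 without NUDT16 replicate 3, and the circle lies left of the bar with normexp, without the filter, without mock replicate 3 and without NUDT16 replicate 1.

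The rest of the pathway was read from 5 lists of 46 genes, of which 34 were tested and 0 called. There were 20 higher and 14 lower with a median of 0.13, and 21 higher and 13 lower with a median of 0.22 without NUDT16 replicate 2. At an unadjusted limma p under 0.05 there were 0. With the block 0 were called and 2 had an unadjusted p under 0.05, CANX and NFYA (a subunit of the factor that binds CCAAT boxes, at -0.99), against 7.96% of all probes. NFYA was not well above background on NUDT16 replicate 2 and passed the filter through mock. Without that array its difference was -0.77. On NUDT16 replicate 2 only 17 of the 34 genes were well above background, so the values of the others there are upper limits.

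The immunoproteasome and its activator, which shape peptides for class I, had 6 of 6 higher with a median of 0.21, against 51.4% of all genes. Without NUDT16 replicate 2 it was 5 of 6, with a median of 0.25. PSMB8, a catalytic subunit, differed by 0.55 (SE 0.65), with 0.55, 0.57 and 0.55 by pair, and PSMB10, another, by 0.45 (SE 0.68). Without that array they were at 0.68 and 0.21.

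Peptide loading and trimming had 4 higher and 6 lower with a median of -0.22, which turned to 0.20 with 6 higher and 4 lower without NUDT16 replicate 2. The chaperone calnexin, CANX, read 2.93, 5.84 and 5.64 on mock and 1.91, 3.14 and 5.10 on NUDT16 replicates 1, 2 and 3. Its low arrays were those of replicate 1, where the heavy chains were high, and the groups overlapped. The difference was -1.42 (SE 0.91), with -1.02, -2.70 and -0.54 by pair, and -1.30 without NUDT16 replicate 2. ERAP2, a trimming peptidase, had -1.36 (SE 0.81), with -0.60, -3.26 and -0.21 by pair. It was not well above background on NUDT16 replicate 2, and without that array the value was -0.63.

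TAPBPL, a tapasin-related editor, had 0.94 (SE 0.68), with 0.85, 1.87 and 0.09 by pair. It too was not well above background on NUDT16 replicate 2, and had 0.82 without it. FCGRT, the heavy chain of the neonatal Fc receptor, had 0.76 (SE 0.60), with 0.71, 1.49 and 0.07 by pair, and 0.45 without that array. CANX, ERAP2, TAPBPL and FCGRT each had a limma adjusted p of 0.999, and of 0.482 with the block.

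Transcription factors of MHC genes had 4 higher and 7 lower of 11 tested, with a median of -0.55, and 5 higher and 6 lower with a median of -0.23 without NUDT16 replicate 2. NLRC5 itself was at -1.07 ± 0.75 (SD, n = 3) in mock, against -0.91 ± 0.30 (SD, n = 3) on the NUDT16 arrays, and was at background on NUDT16 replicate 2. Of 10 class II genes only 2 were tested, HLA-DRB1 at 0.40 and HLA-DMA at 0.28. Without NUDT16 replicate 2 they were at -0.10 and 0.18. Of the 10, 1 was detected on NUDT16 replicate 2 and 2 to 6 on each of the other arrays. Only HLA-DRA, HLA-DMB and HLA-DQA1 were at background on every array, as CIITA was. Class I-like genes had 4 higher and 1 lower, with a median of 0.65, and of 0.45 without that array. PSMB8, PSMB10, NLRC5, NFYA, HLA-DRB1 and HLA-DMA were chosen after their values were seen.

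Promoter sequence was set beside these genes because most of them share regulatory elements. RefSeq promoters (GRCh38.p14) were found for 7 of the 9 genes, with 2 starts for TAP1, and HLA-E and CIITA had no entry. The 250 bases before each start were searched on both strands for TGACG, as in the X2 box of MHC promoters, for CCAAT, as in the Y box, and for GAAA, any 2 bases and GAAA again, as in interferon-response elements. TGACG was in 4 of 8 promoters against 21.2% of all 35116, CCAAT in 5 of 8 against 32.0%, and the GAAA pair in 5 of 8 against 3.02%. The windows below are written 5′ to 3′ on the gene's strand, and capitals mark TGACG and CCAAT in HLA-B and HLA-C, CCAAT in HLA-F, all 3 motifs in B2M, and the GAAA pair in TAP1, TAP2 and TAPBP. Only matches within 150 bases before the start are shown, and overlapping matches run together.
HLA-B chr6:31357219-31357297 (minus strand): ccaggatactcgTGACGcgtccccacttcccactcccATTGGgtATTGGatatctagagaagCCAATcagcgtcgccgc
HLA-C chr6:31272132-31272209 (minus strand): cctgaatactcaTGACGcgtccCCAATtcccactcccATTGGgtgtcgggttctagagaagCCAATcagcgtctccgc
HLA-F chr6:29723340-29723393 (plus strand): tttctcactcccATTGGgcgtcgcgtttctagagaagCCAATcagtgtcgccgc
B2M chr15:44711361-44711484 (plus strand): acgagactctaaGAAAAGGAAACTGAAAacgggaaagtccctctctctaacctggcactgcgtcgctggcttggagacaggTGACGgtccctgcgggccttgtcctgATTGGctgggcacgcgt
TAP1 chr6:32853811-32853850 (minus strand): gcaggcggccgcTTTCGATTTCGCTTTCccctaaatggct
TAP2 chr6:32838776-32838809 (minus strand): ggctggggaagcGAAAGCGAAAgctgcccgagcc
TAPBP chr6:33314079-33314110 (minus strand): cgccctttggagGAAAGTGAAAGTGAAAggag
These are matches of letters in the reference, and no binding was measured here.

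For each probe detected on all 6 arrays, the gene outside the 9 with the most similar array profile was named. Among 6572 probes detected on all 6 arrays, each profile was centred on its own mean and compared by the root mean square distance over the 6 arrays, on the log2 scale. The nearest is by construction the smallest of 6572 distances, so its size is a description only. The gene nearest to B2M was TCEB1 (now ELOC) at 0.03. The nearest were FAH for HLA-F at 0.05, HAX1 for HLA-E at 0.06, CAPNS1 for TAP1 at 0.07, PEX14 for A_33_P3424800 at 0.07, CHST12 for A_33_P3330109 at 0.08 and DPP7 for A_33_P3399208 at 0.12. For A_33_P3379947 and A_33_P3424803 the nearest were probes without a gene name, and for A_33_P3325914 it was the transcript XLOC_010647 at 0.10. Over the 6 arrays the levels of these 10 probes had a median span of 2.48 and a widest span of 3.46, and those of all probes detected on 6 arrays had a median span of 2.06.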

How the data were processed

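The arrays (Agilent design 039494) were read with Feature Extraction 10.7.3.1, per the file headers, and probe coordinates are hg19. The deposited processed signal is a linear fluorescence intensity, detrended spatially and multiplicatively within the array with background correction off, per the file headers, and with surrogates for spots not above background, which flatten dim probes. The authors' deposited value table is on a log2 scale from 4.04 to 18.4. The submitters' processing notes name Agilent Feature Extraction and limma without versions, and the table's steps are not given in the sources used here. Control and outlier spots were left out, log2 signals were shifted by each array's 75th percentile, and spots of a probe were averaged. A probe was tested where mock, NUDT16 or both had it well above background on all 3 arrays. Tests used limma 3.58.1 in R 4.3.3 (two-sided, Benjamini-Hochberg over 17765 probes, threshold 0.05). The brightest probe stood for a gene, and for HLA-C that was A_33_P3424803, which overlaps the HLA-B probes. The procedure was tested on simulated data with known changes.

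The members and lists were chosen with earlier results of these data known. Named genes were the 9 members, in the other lists any called gene or else the 2 of smallest p in each direction (6 others are marked in the text as chosen after their values were seen), and for each member probe detected on all 6 arrays the nearest profile. Same-numbered arrays shared a slide, and their deviations from group means correlated at 0.84, 0.39 and 0.77 across probes, so the numbers pair the arrays. Marker lists for erythroid cells (0 to 2 of 3 detected per array) and for epithelial cells and fibroblasts (0 to 1 of 4) were also read. No annotation on hg19 was used, so exons and untranslated regions are not given.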

Additional observations from a re-analysis of the deposited data

How the results depend on the processing

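No antigen presentation probe was called in any of 18 other fits, and no gene of the pathway lists. The count of called probes over the whole table was 1 as reported and 0 under 5 settings: normexp, no scaling, no filter, a filter requiring detection on 6 arrays, and the value table of the authors. There 8, 1, 225, 2 and 10 probes had an unadjusted limma p under 0.05. It was 1 whenever 1 array was left out and 503 without replicate 2 in both groups with the replicate block. The replicate block alone called 1 probe, the same one, and the median of the 8 genes was 0.38. That median moved to -0.33 with the median shift and to -0.70 without scaling, and ranged from -0.29 to 0.81 when 1 array was left out.

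Of 150 values for single genes, 117 kept their direction, 33 reversed and 0 passed the threshold (limma adjusted p 0.0745 to 0.99999). Both changes of filter, the replicate block and the intensity trend leave a gene's difference itself unchanged. The 117 therefore include values that could not reverse, and the count does not measure how stable the directions are. HLA-C stands here for A_33_P3424803, its brightest probe, which overlaps the HLA-B probes, so the 2 genes were not read separately. With normexp HLA-B was at -0.32, HLA-C at -0.51, HLA-E at -0.22, HLA-F at -0.14 and TAP2 at 0.0903. With the median shift HLA-B was at -0.32, HLA-C at -0.34, HLA-E at -0.20, HLA-F at -0.0533 and TAP1 at -0.19. Without scaling these 5 were at -0.70, -0.71, -0.58, -0.43 and -0.56. Array weights gave 0.22 for TAP2 and 0.40 for TAPBP. TAPBP was at 0.13 in the authors' table and 0.0874 as the mean of its probes. Without replicate 2 in both groups, B2M was at 0.20, TAP2 at 0.26 and TAPBP at 0.48. Leaving out 1 array gave -0.24 to 0.82 for HLA-B, -0.22 to 0.80 for HLA-C, -0.65 to 0.29 for B2M, -0.33 to 1.16 for TAP1, -0.53 to 0.47 for TAP2 and -0.91 to 0.87 for TAPBP, while HLA-E (0.05 to 0.91) and HLA-F (0.05 to 1.20) kept their sign. The median shift and no scaling move all genes alike; the cause of the other changes was not tested. NUDT16 replicate 2 had the least signal over background, which limits TAP2 and TAPBP there.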
